A study of Mus musculus with 6 samples.

Results

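The genes described here encode the subunits of the mitochondrial respiratory chain and of ATP synthase, in bone marrow-derived macrophages (BMDMs) with and without a myeloid deletion of Scd2, which encodes a stearoyl-CoA desaturase. They were chosen by symbol among the protein-coding entries of the deposited count table: symbols that start with mt-, Nduf (but not Ndufaf, which marks assembly factors), Uqcr, Cox4 to Cox8 or Atp5, together with Sdha, Sdhb, Sdhc and Sdhd. The rule gave 98 of 40481 genes, of which 13 lie on the mitochondrial genome and 85 in the nucleus. Of the 98, 93 had enough counts to be tested, and 5 did not (Cox4i2, Cox7b2, Cox8b, Cox8c and Ndufa4l2, each with 0 to 6 counts in a library). Between 61% and 65.8% of the counts from 1 to 10 in a library were even numbers, so what 1 count stands for is uncertain, which bears on such low values. The prefixes also take in Cox7a2l, which takes part in joining complexes III and IV, and Atp5s, a factor that associates with ATP synthase. Neither is a subunit, and both are given apart from the complexes.

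RNA of unstimulated BMDMs was sequenced after poly(A) selection, 1 library per sample, from 3 samples labelled WT and 3 labelled Scd2-KO. The Scd2-KO cells, called Scd2-m/-m here, came from mice in which floxed Scd2 alleles were recombined by lysozyme M-Cre, a recombinase carried by the lysozyme gene of myelomonocytic cells, so that deletion runs along with myeloid differentiation and need not be complete. The sources used here do not say whether the wild-type mice carried floxed alleles or the Cre. Cells of both groups were grown from marrow in medium with CMG-conditioned medium, which supplies macrophage growth factor, and received no stimulus. The mice were adults of either sex according to the methods, with no sex or age given for a library. The labels do not say whether replicates came from separate mice, so p-values measure only the spread between these samples.

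Electrons from NADH enter the chain at complex I and those from succinate at complex II, and both pass through coenzyme Q to complex III and through cytochrome c to complex IV, which reduces oxygen. Complexes I, III and IV pump protons across the inner mitochondrial membrane, and ATP synthase uses their return to make ATP. All of these except complex II hold subunits made from mitochondrial DNA beside subunits imported from the cytosol, so each complex draws on both genomes. In macrophages the chain is known both for supplying ATP and for making reactive oxygen species during inflammatory responses.

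The libraries held between 46285176 and 57629638 counts on genes. Scd2 itself stood at 66.9, 77.8 and 62.7 CPM (counts scaled to the TMM-adjusted library size) in wild-type and at 59.5, 38 and 39.8 CPM in Scd2-m/-m libraries. The groups did not overlap, but the difference did not pass the test (log2 fold change -0.59, standard error 0.19, FDR = 0.1, edgeR quasi-likelihood test). All 10 macrophage markers looked at had at least 1 CPM in every library. Their summed level was 38691 to 39994 CPM in wild-type, against 22598 to 23404 CPM in Scd2-m/-m libraries. Most of this gap was Lyz2, the lysozyme gene that drives the Cre (mean 22751 against 9029 CPM). Altogether 5 of the 10 markers fell and 1 rose. Among the others that fell were Csf1r, the receptor for macrophage growth factor (log2 fold change -0.38, FDR = 0.00158, edgeR), and Adgre1, a macrophage surface marker (-0.49, FDR = 0.00428). Markers of neutrophils and their precursors summed to 11.3 to 11.8 CPM against 26.6 to 34.4 CPM, with 6 of 8 tested genes higher. B cell markers summed to 2.18 to 3.79 CPM in wild-type and to 5.37 to 7.24 CPM in Scd2-m/-m libraries (2 of 3 tested higher), dendritic cell markers to 0.947 to 1.48 against 1.83 to 2.99 CPM (2 of 5 higher), endothelial markers to 7.67 to 7.98 against 9.05 to 9.94 CPM (0 of 3 called), and mast cell and basophil markers to 0.477 to 0.669 against 0.824 to 1.57 CPM (0 of 2 called). The groups did not overlap in any of these sums. Lists for erythroid, T and NK, stromal and fat cells overlapped and summed to at most 4.51 CPM in every library, with Ncr1 and Adipoq at 0. All 20 cell division genes of a further list were higher in Scd2-m/-m BMDMs, with a median log2 fold change of 1.93. Beside these counts, 9.65% of all 14778 genes tested were higher and 7.84% lower at FDR below 0.05 (edgeR). The part of these differences in the results below was not tested, and in bulk RNA a change in the number of cells of a type and a change in the RNA per cell cannot be told apart.

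Most respiratory chain genes differed little between wild-type and Scd2-m/-m BMDMs. At FDR below 0.05, 9 of 93 tested genes were higher in Scd2-m/-m BMDMs, which is 9.68%, against 9.65% of all 14778 genes tested. A further 2 were lower, or 2.15%, against 7.84% of all genes tested. In both directions together, 17.5% of all genes tested passed. The share of subunit genes that rose was thus close to that of genes in general. The genes that rose were Ndufa1, Ndufb11, Ndufc1 and Ndufv3 of complex I, Sdhc of complex II, Cox5b, Cox6c and Cox7b of complex IV and Atp5c1 of ATP synthase, by 0.20 to 0.37 on the log2 scale. Those that fell were Ndufa6 and Ndufs7 of complex I, with log2 fold changes of -0.27 and -0.24. None of the 13 mitochondrial-encoded genes and none of the 9 complex III genes passed. The median log2 fold change was 0.036 for mitochondrial-encoded and 0.026 for nuclear-encoded genes, against 0.0039 for all genes tested. Replicates did not overlap between the groups for 19 genes that were higher and 6 that were lower in Scd2-m/-m libraries, while 34.9% of all genes tested did not overlap, 17.9% higher and 17% lower. The threshold fell between Ndufb11 (FDR = 0.0429) and Uqcrc2 (FDR = 0.0609), followed by Atp5o (FDR = 0.062) and Atp5mpl (FDR = 0.0677).

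**Figure D1:**
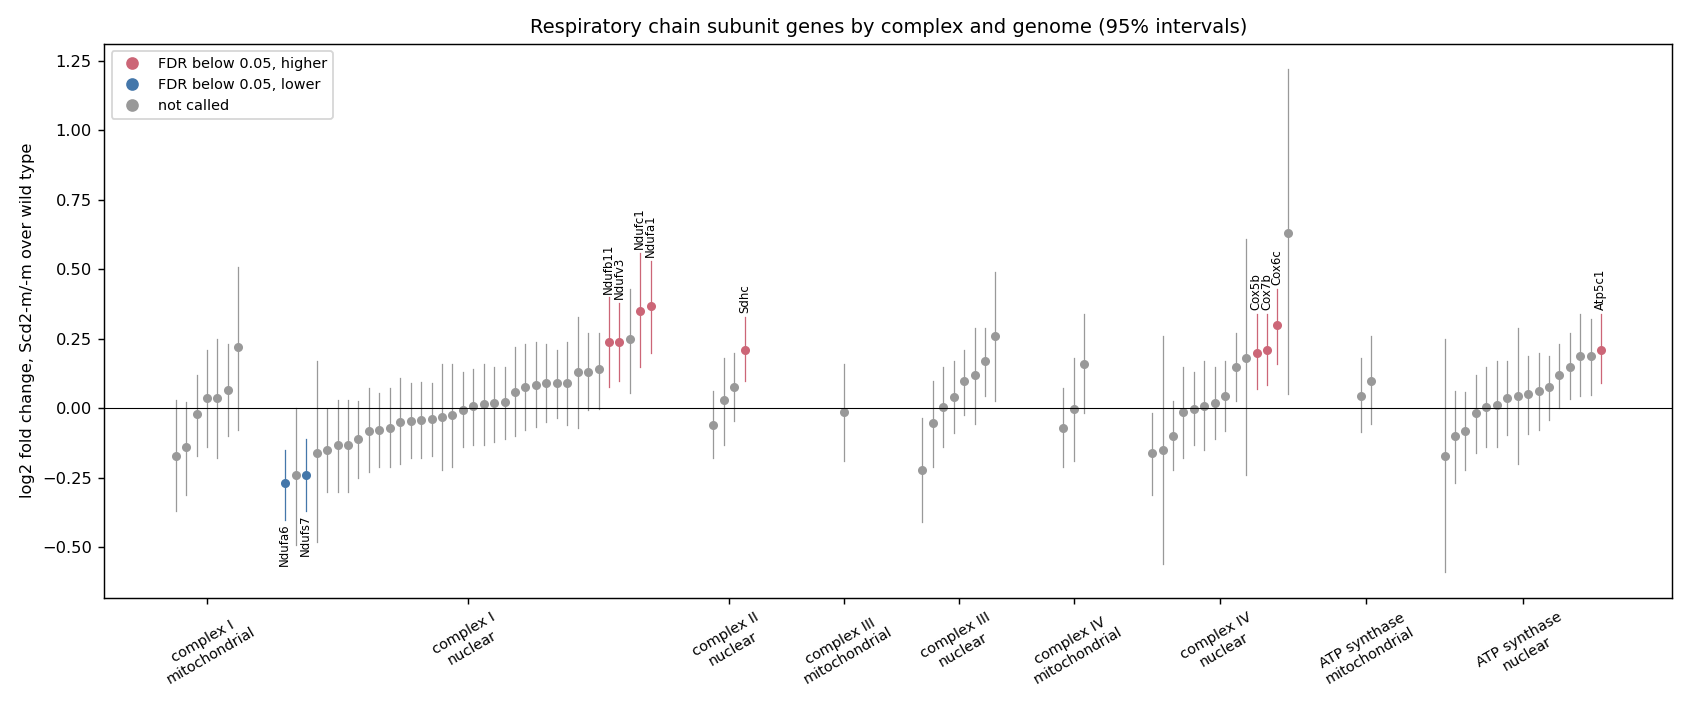
Log2 fold change of Scd2-m/-m over wild-type BMDMs (vertical axis) for the 91 tested subunit genes, grouped by complex and by genome along the horizontal axis and ordered by size within each group. Points are estimates from the edgeR fit and lines are 95% intervals. The 9 red and 2 blue points passed FDR below 0.05, and 13 of 13 mitochondrial-encoded genes have an interval that includes 0. Cox6a2, the highest point, rests on about 1 to 2 CPM.

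As summed levels, the nuclear-encoded genes were alike in the groups, with 7397, 7105 and 7169 CPM in wild-type, against 7498, 7386 and 7042 CPM in Scd2-m/-m libraries. The mitochondrial-encoded genes summed to 20544, 21346 and 19586 CPM in wild-type and to 20411, 20393 and 23961 CPM in Scd2-m/-m libraries. Both kinds overlapped between the groups, and the high mitochondrial value belonged to Scd2-m/-m replicate 3 alone, at 117% of the wild-type mean. This library had the highest level of the Scd2-m/-m libraries for 11 of 13 mitochondrial-encoded genes (84.6%), and for 37.2% of all genes tested. It had the lowest level for 44 of 80 nuclear-encoded genes (55%), against 37.5% of all genes tested. Its levels also deviated from the 6-library mean with GC content across 8631 genes (Pearson's r = -0.506 across genes, which are not independent replicates), where the other libraries had r between -0.187 and 0.217. Without this library the median log2 fold change of mitochondrial-encoded genes was -0.0552, and with a correction for GC content and length, chosen after seeing the data, it was -0.0858. The sign of the mitochondrial median thus changed without this 1 library. The mitochondrial-to-nuclear count ratio was between 2.72 and 3 in the other 5 libraries and 3.4 in this one.

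**Figure D2:**
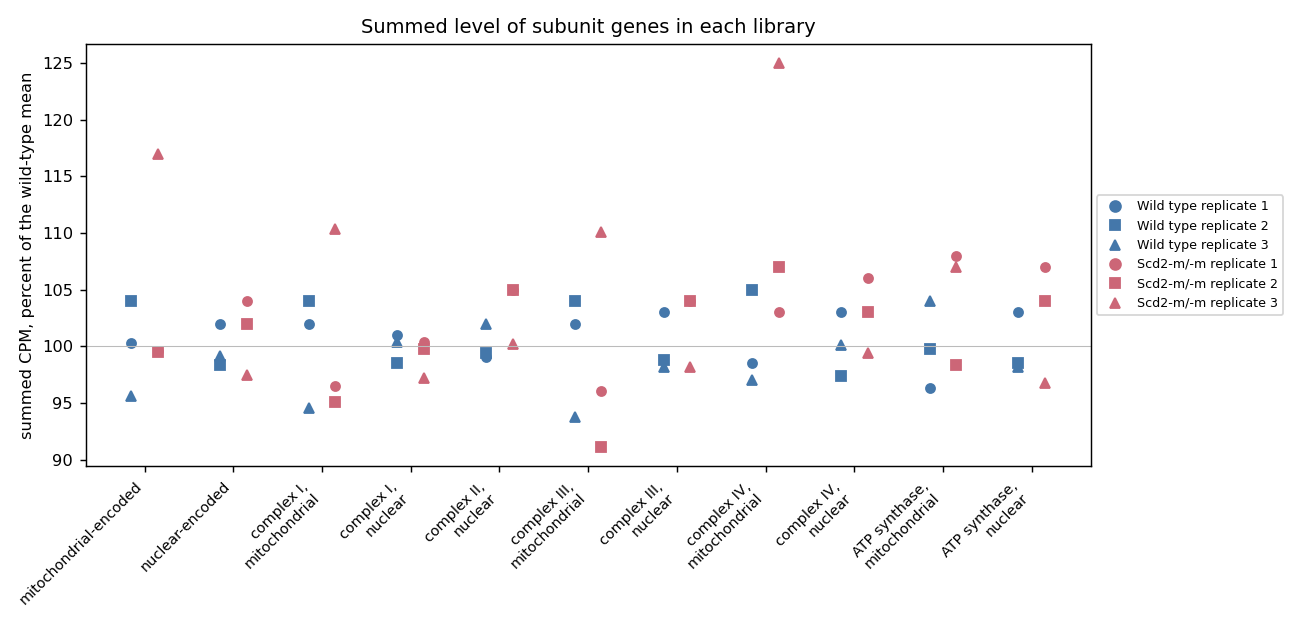
Summed CPM of subunit genes in each library as a percent of the wild-type mean (vertical axis), for each genome and for each complex by genome. Blue symbols are wild-type and red symbols Scd2-m/-m libraries, with 1 shape per replicate number. Scd2-m/-m replicate 3 is highest in the mitochondrial sums of complexes I, III and IV, at 110.4%, 110.1% and 125%, and near or below 100% in most nuclear sums.

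Complex I has 43 genes here, all tested, of which 4 rose in Scd2-m/-m BMDMs and 2 fell (9.3% and 4.65%). The 14 core subunits carry the flavin, the iron-sulfur clusters and the proton channels, and 7 of them are mitochondrial-encoded. The other 29 are supernumerary subunits that surround the core. Among the core genes 1 passed the test, the nuclear Ndufs7, and among the supernumerary genes 4 rose and 1 fell. The summed level of the nuclear complex I genes was 1902, 1854 and 1888 CPM in wild-type, against 1889.9, 1877 and 1829 CPM in Scd2-m/-m libraries, and these overlapped.

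Ndufa1 (ENSMUSG00000016427, chromosome X, 37187588 to 37191163 on GRCm38) encodes a small membrane subunit that complex I needs for assembly. It stood at 56.7, 51.8 and 48.7 CPM in wild-type and at 69, 61 and 72.5 CPM in Scd2-m/-m libraries. All Scd2-m/-m libraries were above all wild-type ones, a log2 fold change of 0.37 (95% interval 0.20 to 0.53, FDR = 0.00457, edgeR), the largest rise among the called genes. Ndufc1 (ENSMUSG00000037152, chromosome 3, 51404677 to 51408988), another membrane subunit, stood at 19.2, 21.5 and 19.9 CPM against 22.1, 25.7 and 29.6 CPM. The groups did not overlap, yet the 3 Scd2-m/-m values spread from just above wild type upwards, and the estimate was 0.35 (0.15 to 0.56, FDR = 0.0217, edgeR). Its transcript holds stretches of 108 to 116 bases that are at least 97.2% identical to parts of other transcripts, Polg2 and Dynll1 among them, and how reads matching several genes were counted is not given.

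Ndufb11 (ENSMUSG00000031059, chromosome X, 20615326 to 20617619) encodes a subunit of the membrane arm. Its levels were 54.3, 56.3 and 63.9 CPM in wild-type, against 64.8, 66.6 and 74.7 CPM in Scd2-m/-m libraries. Wild-type replicate 3 lay just below the lowest Scd2-m/-m library, and the log2 fold change was 0.24 (0.077 to 0.40, FDR = 0.0429, edgeR). Its exons share 117 bases with Rbm10 on the opposite strand. Whether counting used strand is not given, and Rbm10 stood at 31.6 ± 0.524 CPM in wild-type, against 28.9 ± 0.159 CPM in Scd2-m/-m BMDMs (± SD, n = 3 per group). Ndufv3 (ENSMUSG00000024038, chromosome 17, 31520115 to 31531331) encodes a supernumerary subunit of the NADH-oxidising module. It stood at 56.5, 59.7 and 51.2 CPM against 66.5, 66.3 and 64.9 CPM. The Scd2-m/-m libraries were close together and above every wild-type one (log2 fold change 0.24, 0.10 to 0.38, FDR = 0.0232, edgeR).

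The 2 genes that fell are both nuclear and both belong to complex I. Ndufa6 (ENSMUSG00000022450, chromosome 15, 82350140 to 82354322) encodes a subunit at the joint of the matrix and membrane arms that binds the acyl carrier protein. It stood at 114, 111 and 110.3 CPM in wild-type and at 89.2, 97.2 and 90.2 CPM in Scd2-m/-m libraries. The wild-type libraries were close to each other and all above the Scd2-m/-m ones, with a log2 fold change of -0.27 (-0.40 to -0.15, FDR = 0.00486, edgeR). Ndufs7 (ENSMUSG00000020153, chromosome 10, 80249121 to 80256794) encodes the core subunit with the iron-sulfur cluster next to the quinone site. Its levels were 84.4, 82.9 and 84 CPM against 74.7, 71.3 and 66.5 CPM. The groups were well apart (log2 fold change -0.24, -0.37 to -0.11, FDR = 0.0142, edgeR).

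The other nuclear genes of complex I had log2 fold changes between -0.24 and 0.25 and did not pass. Per kilobase of main transcript, Ndufa3 was the most abundant nuclear complex I gene, with a level of 192 CPM per kilobase over the 6 libraries, followed by Ndufa6 at 173. The least abundant was Ndufb2 at 7.84 CPM per kilobase, with 3.97, 4.03 and 3.29 CPM in wild-type, against 3.06, 3.24 and 3.8 CPM in Scd2-m/-m libraries, although its product is a regular subunit. The median nuclear complex I gene had 53.6 CPM per kilobase. Ndufa2, a supernumerary subunit, did not overlap between the groups (94.1, 92.9 and 103 against 90.6, 88.8 and 66.2 CPM). The low value was that of Scd2-m/-m replicate 3, and the difference did not pass (FDR = 0.17, edgeR).

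Complex II, also an enzyme of the citric acid cycle, is made by 4 nuclear genes, and 1 of them rose. Sdhc (ENSMUSG00000058076, chromosome 1, 171127165 to 171150603) encodes one of the membrane anchors that bind haem and quinone. It stood at 115, 111 and 110.4 CPM in wild-type and at 131, 130.5 and 129 CPM in Scd2-m/-m libraries. The replicates of each group lay close together and the groups apart (log2 fold change 0.21, 0.10 to 0.33, FDR = 0.0152, edgeR). Its partner anchor Sdhd did not pass, with 77.1, 76.5 and 86 CPM against 88.2, 81.2 and 75 CPM. The flavoprotein gene Sdha (log2 fold change -0.059, interval -0.18 to 0.064) and the iron-sulfur gene Sdhb (0.077, interval -0.046 to 0.20) did not pass either. Per kilobase, Sdhb had the highest level of the 4 at 91.9 CPM per kilobase, then Sdha at 67.5, and Sdhc the lowest at 38.2.

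No complex III gene passed at FDR below 0.05 with edgeR, DESeq2 or limma-voom, while at an unadjusted p below 0.05 (edgeR) 2 of 9 were higher and 1 lower. Those were Uqcrc2 and Uqcrb in the higher and Uqcr10 in the lower direction. The share of all genes tested with such an unadjusted p was not taken. Uqcrc2, a core protein of the matrix side, stood at 53, 53.8 and 55.2 CPM in wild-type and at 60.2, 60.8 and 60.9 CPM in Scd2-m/-m libraries. The groups were well apart by their own spread, and the estimate of 0.17 missed the threshold at FDR = 0.0609. Uqcrfs1, which encodes the Rieske iron-sulfur protein, did not overlap either (84, 85.2 and 85.4 against 92.2, 89.6 and 90.2 CPM, log2 fold change 0.10, FDR = 0.264, edgeR). Uqcrb and Uqcr10 varied more, and Scd2-m/-m replicate 3 was the extreme library in both, at 46.9 CPM for Uqcrb, where the other 5 lay between 32.2 and 43.2, and at 73.7 CPM for Uqcr10, where the other 5 lay between 90.7 and 105. Per kilobase, Uqcr10 (216 CPM per kilobase) and Uqcrh (182) had the highest levels of the nuclear genes and Uqcrc2 (30.2) the lowest. The gene of the other catalytic subunit with an electron-carrying haem, Cyc1, has a symbol outside the rule. It stood at 81.4, 77.4 and 75 CPM against 78, 71.2 and 63.7 CPM and did not pass (log2 fold change -0.14, FDR = 0.239, edgeR).

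Of the 22 complex IV genes, 17 were tested and 3 rose, all of them nuclear. The summed level of the complex, most of which was mt-Co1, was 10553, 11025 and 10382 CPM in wild-type and came to 11057, 11294 and 12945 CPM in Scd2-m/-m libraries. The sums did not overlap, and the highest was that of Scd2-m/-m replicate 3. Cox6c (ENSMUSG00000014313, chromosome 15, 35925886 to 35938246) encodes a small transmembrane subunit. It stood at 76.3, 69 and 68.1 CPM in wild-type and at 88.1, 88.9 and 85.3 CPM in Scd2-m/-m libraries. The lowest Scd2-m/-m library was above the highest wild-type one, with a log2 fold change of 0.30 (0.16 to 0.43, FDR = 0.00453, edgeR), the lowest FDR among the subunit genes. Exons of Vps13b on the opposite strand share 250 bases with Cox6c, and Vps13b itself had a log2 fold change of 0.075 (FDR = 0.402, edgeR).

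Cox7b (ENSMUSG00000031231, chromosome X, 106015700 to 106022450), another small transmembrane subunit, stood at 58.5, 54.5 and 57.9 CPM in wild-type and at 66.1, 65.6 and 66.1 CPM in Scd2-m/-m libraries. The 3 Scd2-m/-m values were almost equal and above wild type (log2 fold change 0.21, 0.084 to 0.34, FDR = 0.0237, edgeR). Cox5b (ENSMUSG00000061518, chromosome 1, 36691449 to 36693681) encodes the zinc-binding subunit on the matrix side. Its levels were 132, 122 and 130.4 CPM against 148, 156 and 139 CPM. The groups did not overlap (log2 fold change 0.20, 0.07 to 0.34, FDR = 0.0361, edgeR). A near-identical copy, Gm11273, matches it over 390 bases at 99.2% identity and took 8.04 ± 0.885 CPM in wild-type, against 7.9 ± 1.4 CPM in Scd2-m/-m BMDMs (± SD, n = 3 per group), so the reads of the 2 genes are uncertain in their split.

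Several nuclear subunits of complex IV exist as general and as tissue-restricted isoforms, and these BMDMs used the general ones. Cox6a1, the general form of a subunit near the dimer interface, had the highest level of the nuclear complex IV genes at 561 CPM per kilobase, followed by Cox8a at 472. Cox6a2, the heart and skeletal muscle form, had the lowest of those tested at 2.06 CPM per kilobase, with 0.866, 1.11 and 1.32 CPM in wild-type, against 2.06, 1.07 and 1.96 CPM in Scd2-m/-m libraries. The groups overlapped through Scd2-m/-m replicate 2, and the log2 fold change of 0.63 (0.052 to 1.22, FDR = 0.131, edgeR) did not pass. Without that library it was 0.87 and passed (FDR = 0.0454). Of the 6 fits without a library this was the 1 in which Cox6a2 passed, and it passed in 0 of 10 other settings. A list of skeletal muscle markers summed to 2.94 to 4.16 CPM in wild-type, against 4.4 to 4.75 CPM in Scd2-m/-m libraries, with 1 of 4 tested genes higher. Among the other pairs, the general Cox4i1 had 253 CPM per kilobase where Cox4i2, the lung form, had at most 6 counts in a library. Cox6b1 had 219 CPM per kilobase against 4.37 for the testis form Cox6b2, and Cox7a2 had 77.3 against 5.75 for the muscle form Cox7a1. Cox7b2, Cox8b and Cox8c had 0 or 1 count in each library. Of the general isoforms, Cox7b, the relative of Cox7b2, rose as given above (log2 fold change 0.21, FDR = 0.0237, edgeR). Cox4i1, Cox6a1, Cox6b1, Cox7a2 and Cox8a did not pass with edgeR, with log2 fold changes between -0.10 and 0.15. The highest of these, Cox6b1, stood at 134, 128 and 123 against 146, 142 and 139 CPM (FDR = 0.0956, edgeR).

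Ndufa4, which is named for complex I but is a subunit of complex IV, stood at 67.7 ± 3.27 CPM in wild-type and at 68.6 ± 0.832 CPM in Scd2-m/-m BMDMs (± SD, n = 3 per group, log2 fold change 0.02). Its hypoxia-induced relative Ndufa4l2 had 0 or 1 count in each library. Cox7a2l stood at 327, 302 and 290.1 CPM in wild-type and at 286, 278 and 271 CPM in Scd2-m/-m libraries. All Scd2-m/-m values were below all wild-type ones, and the difference did not pass (log2 fold change -0.14, FDR = 0.149, edgeR). With the correction for GC content and length Cox7a2l passed (log2 fold change -0.17, FDR = 0.0406, edgeR). Atp5s stood between 2.95 and 4.12 CPM in the 6 libraries and did not pass (log2 fold change 0.16).

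Of the 18 ATP synthase genes 1 rose and none fell with edgeR, DESeq2 or limma-voom. At an unadjusted p below 0.05 (edgeR) 5 were higher and 0 lower, and the share of all genes tested at that threshold was not taken. Atp5c1 (ENSMUSG00000025781, chromosome 2, 10056016 to 10080510) encodes the gamma subunit, the shaft that turns inside the catalytic head. It stood at 119, 124 and 125 CPM in wild-type and at 136, 142 and 148 CPM in Scd2-m/-m libraries. Every Scd2-m/-m library was higher (log2 fold change 0.21, 0.09 to 0.34, FDR = 0.0201, edgeR). The genes of the catalytic head's main subunits did not pass, Atp5a1 with 542 ± 21.2 against 566 ± 28.6 CPM and Atp5b with 391 ± 14.6 against 387 ± 27.1 CPM (± SD, n = 3 per group).

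The rotating c-ring is built from 1 protein that is encoded by 3 genes, Atp5g1, Atp5g2 and Atp5g3, which differ in the import sequence that is cut off. Summed over the 3 genes, the level was 332, 317 and 317 CPM in wild-type, against 356, 348 and 344 CPM in Scd2-m/-m libraries, and these did not overlap. Atp5g2 stood at 114, 113 and 111 against 124, 123 and 128 CPM (log2 fold change 0.15, FDR = 0.0718, edgeR), and Atp5g3 at 152, 147 and 152 against 162, 164 and 164 CPM (0.12, FDR = 0.158). Both had groups that were apart, and neither passed in this fit. With the correction for GC content and length Atp5g2 passed (log2 fold change 0.27, FDR = 0.00926, edgeR). Atp5g2 has 2 full-length identical copies, Gm10175 and Gm10231, which took 8 to 60 counts in a library. Atp5g1 overlapped (66.4, 56.6 and 54 against 70, 60.8 and 51.9 CPM). The 4 genes of the peripheral stalk, Atp5f1, Atp5h, Atp5j and Atp5o, summed to 269, 261 and 263 against 271, 286 and 283 CPM, again without overlap, and none of the 4 passed with edgeR. The sums of the catalytic head and of the membrane part overlapped. So did that of all ATP synthase genes, at 2499, 2393 and 2391 CPM in wild-type, against 2589.9, 2522 and 2363 CPM in Scd2-m/-m libraries. Atp5l, a membrane subunit with the highest level per kilobase of the nuclear ATP synthase genes (305 CPM per kilobase), was the second most variable of all tested subunit genes, with 195, 172 and 161 CPM in wild-type, against 190.5, 157 and 121 CPM in Scd2-m/-m libraries. It has 2 copies with at least 99.4% identity over 309 bases or more, Atp5l2-ps and Gm10221, each of which took 210 to 370 counts in a library. Atp5j had the lowest level per kilobase at 49.5.

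**Figure D3:**
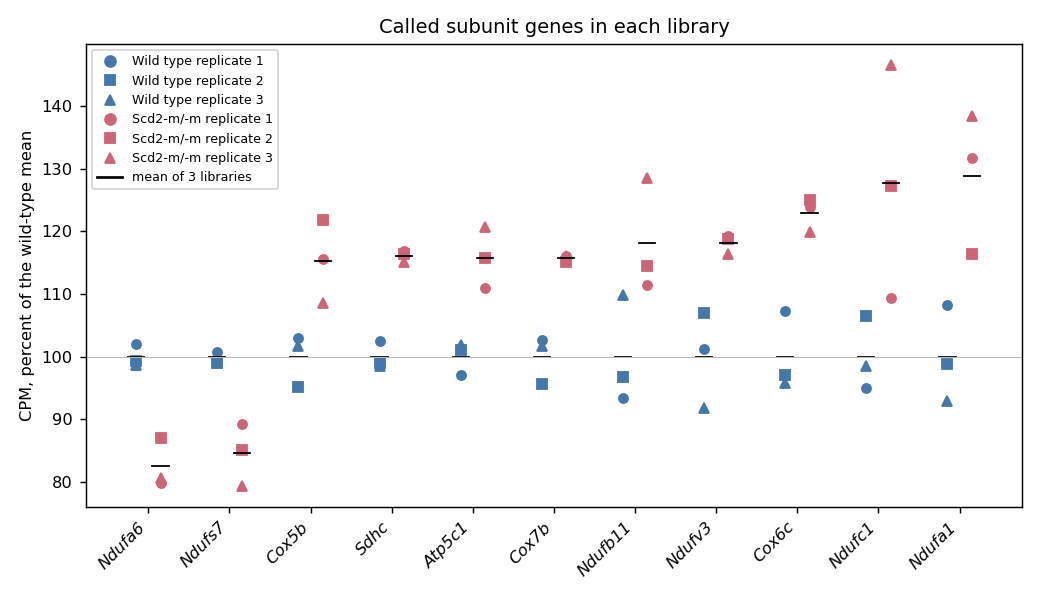
CPM of the 11 called subunit genes in each library as a percent of the wild-type mean (vertical axis), with wild-type libraries in blue, Scd2-m/-m libraries in red, 1 shape per replicate number and a black line at each group's mean. The Scd2-m/-m means lie at 82.7% for Ndufa6 and 84.5% for Ndufs7, and between 115% for Cox5b and 129% for Ndufa1 for the 9 genes that rose.

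All 3 X-linked subunit genes, Ndufa1, Ndufb11 and Cox7b, were among the 9 that rose, which was noticed after their values were seen. Together they summed to 169.5, 163 and 170.5 CPM in wild-type and to 199.8, 193 and 213 CPM in Scd2-m/-m libraries. Of all 554 X-linked genes tested, 11.4% were higher and 4.33% lower, and their median log2 fold change was 0.068. Xist, the RNA that silences one X chromosome in female cells, was present at 658 to 842 CPM in every library, and Ddx3y, Kdm5d and Eif2s3y of the Y chromosome had 0 counts in all of them. Another Y-linked gene, Uty, had 6, 0 and 5 counts in wild-type libraries and 0 in the Scd2-m/-m ones.

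The mitochondrial genome makes 13 proteins of the chain: 7 of complex I, cytochrome b of complex III, 3 of complex IV and 2 of ATP synthase. None passed at FDR below 0.05 with edgeR, DESeq2 or limma-voom, and none had an unadjusted p below 0.05 with edgeR. Their log2 fold changes ran from -0.17 for mt-Nd4l to 0.22 for mt-Nd6, with 7 above and 6 below 0, and 95% intervals within -0.37 and 0.51. The levels overlapped between the groups for all 13.

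For complex I, mt-Nd1 stood at 2442, 2433 and 2179 CPM in wild-type and at 2428, 2289 and 2664 CPM in Scd2-m/-m libraries. For mt-Nd2 the levels were 1521, 1507 and 1373 against 1409, 1401 and 1703 CPM. For mt-Nd5 they were 2156, 2266 and 2133 against 2062, 2109 and 2291 CPM. In each of these Scd2-m/-m replicate 3 was the highest of the 6 libraries. mt-Nd4 stood at 1317, 1422 and 1286 CPM against 1187, 1117 and 1342 CPM, with Scd2-m/-m replicates 1 and 2 below every wild-type library (log2 fold change -0.14, FDR = 0.232, edgeR). With the correction for GC content and length it was -0.27 and passed (FDR = 0.0108). mt-Nd6, the one gene of these on the other strand of the mitochondrial genome, stood at 426, 412 and 347 CPM against 384, 446 and 545 CPM. It was the most variable mitochondrial-encoded gene, and it passed when every gene with a count entered the fit (FDR = 0.0188). Its annotation shares 14 bases with mt-Nd5, which had more counts, and without strand in the counting their reads there cannot be told apart.

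mt-Cytb, the cytochrome b of complex III, stood at 3542, 3605 and 3251 CPM in wild-type and at 3332, 3156 and 3817 CPM in Scd2-m/-m libraries. mt-Co1, the catalytic subunit of complex IV, had the highest count of all subunit genes, with 8777, 9316 and 8614 CPM against 9212, 9512 and 11214 CPM. Both overlapped, and mt-Co1 came nearest to the threshold of the 13 by its unadjusted p (log2 fold change 0.16, FDR = 0.202, edgeR). The mitochondrial ribosomal RNAs, which are no subunit genes, were also high in Scd2-m/-m replicate 3. There mt-Rnr2 stood at 788 CPM, where the other 5 libraries lay between 513 and 631, and mt-Rnr1 at 409 CPM. For mt-Rnr1 the other Scd2-m/-m libraries, at 340.5 and 336 CPM, also lay above the wild-type ones at 321, 316 and 290.2 CPM, and the difference did not pass (log2 fold change 0.23, FDR = 0.0599, edgeR).

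The other 6 genes lie side by side on the mitochondrial genome, from mt-Co2 at base 7013 to mt-Nd4l, which ends at base 10173. They had far fewer counts than their neighbours. Per kilobase they held between 40.4 CPM (mt-Nd3) and 235 CPM (mt-Atp8), whereas the 7 genes outside this stretch held between 822 CPM (mt-Nd6) and 6111 CPM (mt-Co1). In the count tables mt-Co2 stood at 106, 115 and 122 CPM in wild-type and at 111, 102 and 114 CPM in Scd2-m/-m libraries. mt-Co3 stood at 82.1, 86.1 and 95.6 against 98.4, 87.3 and 77.5 CPM. Both overlapped, and neither had its highest level in Scd2-m/-m replicate 3. mt-Atp6 stood at 85.7, 86.7 and 90.4 against 95.7, 85.9 and 89.6 CPM. mt-Atp8, which shares 43 bases with it in another reading frame, stood at 43.2, 47 and 48.8 against 49.6, 45.9 and 53.7 CPM. The levels of these ATP synthase genes also overlapped. mt-Nd3 stood at 14.7, 13.1 and 13.8 against 14.3, 12.4 and 16 CPM. mt-Nd4l stood at 31.2, 38.6 and 33.2 against 27.9, 29.1 and 34.4 CPM. Neither of these short complex I genes passed the test (FDR = 0.844 and 0.241, edgeR).

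**Figure D4:**
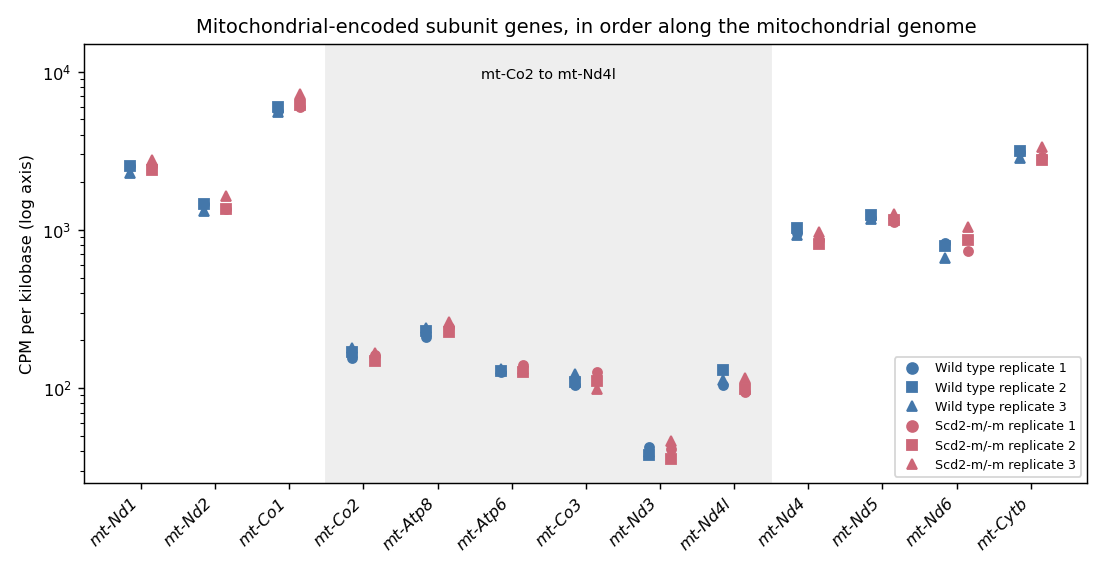
CPM per kilobase (log axis) of the 13 mitochondrial-encoded subunit genes in each library, in their order along the mitochondrial genome. Blue symbols are wild-type and red symbols Scd2-m/-m libraries, with 1 shape per replicate number. The 6 genes on the grey field, from mt-Co2 to mt-Nd4l, lie between 40.4 and 235 CPM per kilobase on average and the other 7 between 822 and 6111.

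Nuclear DNA holds insertions of mitochondrial DNA, and the annotation used here lists one on chromosome 1 of GRCm38 that covers this same stretch. Its pseudogenes lie on the minus strand, from Gm28439 at base 24611535 to Gm29216, which ends at base 24616197. Gm28661 matches mt-Co2 over 681 bases, Gm10925 matches mt-Atp6 over 678, Gm28437 matches mt-Co3 over 783 and Gm10222 matches mt-Nd4l over 294, all with 0 mismatches, and Gm28438 matches mt-Nd3 over 345 bases with 1 mismatch. At the ends, Gm28439 matches 876 bases of mt-Nd4 without a mismatch, and Gm29216 matches 483 bases of mt-Co1 with 1. The first 60 bases of mt-Co2 and mt-Nd3 are shown with those of their nuclear copies, because they show how little sequence tells the 2 origins apart (from the GENCODE transcripts of GRCm38, where capitals mark the one base that differs, T3C, counted from base 1 of mt-Nd3 and written with the mitochondrial base first).
mt-Co2 (chrM:7013-7072, plus strand): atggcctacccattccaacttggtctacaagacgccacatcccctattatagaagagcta
Gm28661 (chr1:24615506-24615565, minus strand): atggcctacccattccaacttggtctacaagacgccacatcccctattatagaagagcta
mt-Nd3 (chrM:9459-9518, plus strand): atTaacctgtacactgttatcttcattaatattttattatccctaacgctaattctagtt
Gm28438 (chr1:24613060-24613119, minus strand): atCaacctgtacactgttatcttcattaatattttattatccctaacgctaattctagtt

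The copies took counts of the same size as the genes themselves. Of the counts on gene and copy together, mt-Co2 held 46.6% to 49% in each library, mt-Atp6 37.7% to 38.5%, mt-Co3 53.6% to 59.2%, mt-Nd4l 61.1% to 64.9% and mt-Nd3 66.9% to 76.7%. Shares for mt-Atp6 and mt-Co2 thus hardly moved between libraries. Summed with their copies, mt-Co2 stood at 239 ± 18.7 CPM in wild-type, against 227 ± 7.76 CPM in Scd2-m/-m libraries, mt-Atp6 at 230.3 ± 4.2 and 238 ± 15.1, mt-Co3 at 160.2 ± 17.5 and 152 ± 14.4, mt-Nd3 at 20.5 ± 0.969 and 19.8 ± 1.7, and mt-Nd4l at 55 ± 5.6 and 48 ± 4.8 (± SD, n = 3 per group). The means of the groups differed by less than the larger SD for 4 of these sums and by more for that of mt-Nd4l. With the copies added, every sum was still below the levels of the genes outside the stretch. The lowest of those, mt-Nd6, stood at 395 ± 42.3 CPM in wild-type, against 458 ± 81.2 CPM in Scd2-m/-m libraries. The sources used here do not say how reads that match both places were counted, so the levels of these 6 genes are uncertain, and so is any difference between genotypes in them. The same doubt applies to mt-Nd4 and mt-Co1 over the 876 and 483 bases that match Gm28439 and Gm29216. mt-Co1 has a second copy, Gm13340 on chromosome 2, with 97.6% identity over its 1545 bases, which took 194 to 241 CPM in a library.

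Nuclear subunit genes are known targets of a few transcription factors, among them nuclear respiratory factor 1 (NRF1), the ETS factor GABP, YY1 and the oestrogen-related receptors, with coactivators of the PGC-1 family. Of a list of 18 such regulators 14 were tested, and 5 fell by edgeR and by DESeq2 and 4 by limma-voom. None rose by any of these tools, with 0 higher at an unadjusted p below 0.05 (edgeR). Over the list, the median log2 fold change was -0.15. Among all genes tested, 7.84% fell and 9.65% rose by edgeR. Pprc1, a coactivator related to PGC-1, stood at 54.8, 49.2 and 50.1 CPM in wild-type and at 37.9, 33.6 and 34.7 CPM in Scd2-m/-m libraries (log2 fold change -0.54, FDR = 1.32e-04, edgeR). Yy1 stood at 102, 102 and 99.7 against 85.8, 90.3 and 84.1 CPM (-0.22, FDR = 0.0151). Myc, a general growth regulator, stood at 15.1, 10.1 and 8.52 against 7.06, 6.25 and 6.62 CPM (-0.76, FDR = 0.0201). Groups did not overlap in any of the 3. Nrf1 (-0.21, FDR = 0.0439) and Esrra, an oestrogen-related receptor (-0.26, FDR = 0.0214), made up the rest of the 5.

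Promoter windows from 250 bases before to 50 bases after the start were found in RefSeq (GRCm38.p6) for 69 of the 85 nuclear subunit genes and searched on both strands. The NRF1 letters, GCGCA and GCGC with 1 base between them, were in those of 17 subunit genes (24.6%), against 5.19% of all 27025 genes and 11.6% of the 9910 tested genes that had a window. The YY1 letters AAGATGGCG were in 7 (10.1%), against 1.64% and 3.62%. The ETS letters CCGGAAG were in 23.2%, against 9.93% and 20.5%, the half-site AAGGTCA of the oestrogen-related receptors in 11.6%, against 5.38% and 3.97%, and the E-box CACGTG, which MYC binds, in 8.7%, against 8.09% and 11.7%. None of these motifs contains another, and a match is no evidence of binding. Genes with the same letters went either way: of the 17 with the NRF1 letters Atp5c1 rose and Ndufa6 fell, and of the 7 with the YY1 letters Ndufc1 rose and Ndufs7 fell, and the others did not pass. The windows of 3 of these called genes, picked by hand, are shown at the start nearest to the main transcript's, with the matched letters in capitals. That of Atp5c1 is not shown.
Ndufa6 (GRCm38.p6, chr15:82354242-82354541, minus strand, NRF1 letters): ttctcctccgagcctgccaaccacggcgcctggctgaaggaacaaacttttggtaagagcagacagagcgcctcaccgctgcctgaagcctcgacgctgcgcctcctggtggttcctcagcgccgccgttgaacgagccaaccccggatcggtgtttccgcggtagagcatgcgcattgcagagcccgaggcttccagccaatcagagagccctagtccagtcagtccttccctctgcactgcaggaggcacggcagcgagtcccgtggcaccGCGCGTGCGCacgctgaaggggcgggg
Ndufs7 (GRCm38.p6, chr10:80249199-80249498, plus strand, YY1 letters): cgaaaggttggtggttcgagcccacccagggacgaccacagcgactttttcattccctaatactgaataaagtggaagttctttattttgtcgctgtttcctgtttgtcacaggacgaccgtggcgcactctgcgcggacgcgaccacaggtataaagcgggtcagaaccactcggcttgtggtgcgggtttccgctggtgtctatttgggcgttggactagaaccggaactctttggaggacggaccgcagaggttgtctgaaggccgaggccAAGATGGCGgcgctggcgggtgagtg
Ndufc1 (GRCm38.p6, chr3:51408906-51409205, minus strand, YY1 letters): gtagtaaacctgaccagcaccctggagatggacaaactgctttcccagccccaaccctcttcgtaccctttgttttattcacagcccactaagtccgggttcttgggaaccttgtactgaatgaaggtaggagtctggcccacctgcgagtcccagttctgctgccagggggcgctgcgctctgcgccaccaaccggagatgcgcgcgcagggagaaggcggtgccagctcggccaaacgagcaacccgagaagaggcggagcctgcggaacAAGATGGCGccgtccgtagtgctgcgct

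The match begins 23 bases after the start in Ndufa6 and 24 and 22 bases after it in Ndufs7 and Ndufc1, with the YY1 letters on the gene's own strand and the NRF1 letters of Ndufa6 on the opposite one, so that they are printed as their reverse complement.

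Other genes that build or run the chain also differed little. Of 51 tested assembly factors 1 rose and none fell (edgeR), with a median log2 fold change of 0.013. That was Ndufaf2, a complex I assembly factor, at 5.7, 5.33 and 5.14 against 6.85, 6.53 and 7.07 CPM (FDR = 0.0499), which limma-voom did not call. Of 22 genes for electron carriers and coenzyme Q synthesis Coq2, which attaches the side chain of coenzyme Q, fell (19.5, 19.8 and 19.1 against 17.5, 15.6 and 15.3 CPM, FDR = 0.0273, edgeR). No gene of the citric acid cycle and pyruvate oxidation list (25 tested) and none of the cardiolipin list (15 tested) passed with edgeR, DESeq2 or limma-voom. At an unadjusted p below 0.05 (edgeR) 3 genes of the first were higher and 0 lower, and 4 of the second were higher and 2 lower. The share of all genes tested at that threshold was not taken. The median log2 fold changes of these lists were 0.06 and 0.068. Over all genes tested, 9.65% rose and 7.84% fell at FDR below 0.05 (edgeR).

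Among 32 genes that copy mitochondrial DNA and process its RNA, 1 rose and 3 fell with edgeR. With limma-voom 0 rose and 2 fell. Polg, the catalytic subunit of the mitochondrial DNA polymerase, stood at 61.5, 57.4 and 53.1 CPM in wild-type and at 44.6, 44.7 and 39.2 CPM in Scd2-m/-m libraries (log2 fold change -0.42, FDR = 0.0014, edgeR). Its accessory subunit Polg2 stood at 6.73, 8.93 and 9.23 against 5.45, 5.45 and 6.99 CPM (-0.47, FDR = 0.0335). Both fell, with the groups apart for Polg and overlapping for Polg2. Elac2, which trims mitochondrial tRNAs, also fell (-0.23, FDR = 0.0352), and Hsd17b10, a subunit of mitochondrial RNase P, rose (0.27, FDR = 0.0386). Of 13 inner membrane carriers and channels 2 rose and none fell (edgeR): Slc25a24, an ATP-magnesium and phosphate carrier, from 63.7, 61.1 and 57.7 to 76.2, 79.6 and 80.4 CPM (0.37, FDR = 8.43e-04), and Slc25a4, the heart and muscle form of the ADP/ATP carrier (0.17, FDR = 0.0471). Of 18 genes for cristae and the inner membrane 3 rose and none fell (edgeR): Chchd10 (0.33, FDR = 0.0217), Apool (0.38, FDR = 0.0251) and Chchd6 (0.52, FDR = 0.0279), all of which act at or near the contact sites of the cristae. The 3 lists had median log2 fold changes of 0.044, 0.084 and 0.064. Their counts stand beside 9.65% of all genes tested that rose and 7.84% that fell (edgeR). DESeq2 called only 1 of the carriers and channels higher. Over all pathway lists, the cell division genes included, 36 genes passed with edgeR. Without wild-type replicate 2 the number was 25, and without Scd2-m/-m replicate 2 it was 27.

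The calls of Ndufa1, Cox6c and Ndufa6 held in all 10 other settings and in all 6 fits that left out 1 library. The other 8 were lost without at least 1 library, while every sign stayed the same. Leaving out Scd2-m/-m replicate 2 left 3 genes higher and 1 lower, and leaving out wild-type replicate 2 left 4 and 1, wild-type replicate 3 left 5 and 2. Without Scd2-m/-m replicate 2 the 8 lost genes had FDR between 0.0696 (Ndufs7) and 0.211 (Cox5b). Without wild-type replicate 2 Ndufb11, Ndufs7, Sdhc, Cox5b, Cox7b and Atp5c1 lost their calls (FDR 0.0563 to 0.192), and without wild-type replicate 3 Ndufc1, Ndufv3, Sdhc and Cox5b did (0.0514 to 0.102). Without wild-type replicate 1 and without Scd2-m/-m replicate 3 the lost genes were Ndufb11, Ndufc1 and Atp5c1 (0.0564 to 0.134 and 0.0559 to 0.143), and without Scd2-m/-m replicate 1 only Cox5b was lost (0.058). Among the settings that kept all libraries, limma-voom lost Ndufb11 (FDR = 0.0505), and the GC and length correction lost Ndufb11 (FDR = 0.062) and Cox7b (FDR = 0.117). That correction also added calls. Atp5g2 (FDR = 0.00926) and Atp5mpl (FDR = 0.0357) came in as higher, and mt-Nd4 (FDR = 0.0108) and Cox7a2l (FDR = 0.0406) as lower.

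**Figure D5:**
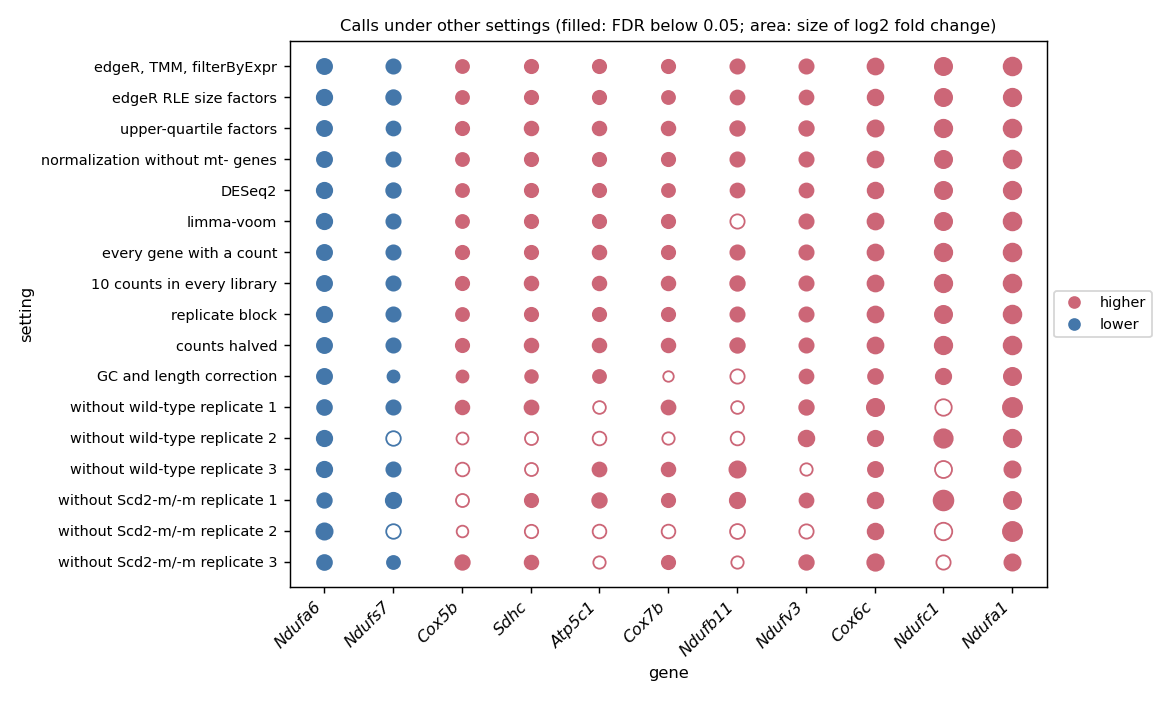
Log2 fold change of the 11 called genes (horizontal axis) under each setting (vertical axis). The area of a circle stands for the size of the log2 fold change, red for higher and blue for lower in Scd2-m/-m BMDMs, and a filled circle for FDR below 0.05. The columns of Ndufa6, Cox6c and Ndufa1 are filled throughout, and the row without Scd2-m/-m replicate 2 has only those 3 filled.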

How the data were processed

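RNA of 6 BMDM samples was poly(A)-selected and sequenced. Reads had been mapped by STAR on the primary assembly of Ensembl (GRCm38), and the authors deposited raw counts per gene. The sources used here do not give the counting tool, the use of strand or the handling of reads that match several places. A second deposited table holds the authors' own comparison (fold changes, p-values, scores and log2 values) and was not used. Of 40757 entries, 276 repeated a gene and were removed. Subunit genes and pathway lists were chosen with earlier results of these data known.

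Counts on genes summed to 46285176 to 57629638 per library. Fold changes are from edgeR 4.0.16 (filterByExpr, TMM, robust glmQLFit, glmQLFTest) with limma 3.58.1 in R 4.3.3, on all 6 libraries, without a covariate, with Benjamini-Hochberg adjustment over 14778 genes (FDR) and a threshold of 0.05. Standard errors were taken from the fold change and its F statistic, and intervals are 95%. CPM uses TMM-scaled library sizes, and levels per kilobase use the length of the main GENCODE M21 transcript. Near-identical copies were found with blastn 2.17.0 (at least 97% identity over at least 100 bases). The procedure was tested on simulated counts. Alternatives were RLE and upper-quartile factors, normalization without mitochondrial genes, DESeq2 1.42.0, limma-voom, other count filters, halved counts, a replicate block, a GC and length correction and leaving out each library. The named genes were all 13 mitochondrial-encoded and all called genes, the 2 most and the 1 least abundant nuclear genes of each complex per kilobase, isoform families and up to 3 called genes per pathway list, and the others named, including those just past the threshold, were chosen after their values were seen.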

Additional observations from a re-analysis of the deposited data

How the results depend on the processing

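The count of subunit genes higher in Scd2-m/-m BMDMs was 9 by edgeR with every scaling, by DESeq2, with 10 counts in every library, with halved counts and with the GC and length correction, 8 by limma-voom and 11 with every gene that had a count. The count of lower genes was 2 in these settings except 4 with every gene that had a count and 4 with the GC and length correction, which also brought the mitochondrial median log2 fold change to -0.0858. In the fits without 1 library, 3 to 11 genes were higher, 1 to 3 lower, and the mitochondrial median lay between -0.0552 and 0.0823; which property of a library sets these counts was not tested. No named gene changed direction among those called. The labels do not say whether the replicate numbers pair the samples. Same-numbered libraries had correlations of their deviations of 0.229, -0.111 and 0.212 across 8636 genes, and differently numbered ones of -0.257 to 0.0918. These values do not settle the pairing. With the replicate block, 9 subunit genes were higher and 3 lower, the third being Uqcr10, and 2974 of all genes passed against 2585. With 3 libraries per group, Cox6a2 and Cox7a1 (about 1 to 3 CPM) and Atp5l (121 to 195 CPM) had the widest intervals of the tested subunit genes.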

Other observations

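ATP synthase partners with symbols outside the selection were also measured. Usmg5, a small membrane subunit, stood at 41.3, 36.5 and 33 CPM in wild-type and at 39.3, 40.1 and 43.6 CPM in Scd2-m/-m libraries, which overlapped (log2 fold change 0.15, FDR = 0.229, edgeR). Atpif1, which inhibits ATP hydrolysis by the enzyme, stood at 86.6, 78 and 73.3 against 90.2, 88.4 and 92.2 CPM. All Scd2-m/-m values were above the wild-type ones, and the difference did not pass (log2 fold change 0.19, FDR = 0.0732, edgeR).

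Spread between replicates differed among the subunit genes. The median within-group SD of log2 CPM was 0.0715 for nuclear-encoded subunit genes, against 0.115 for mitochondrial-encoded ones and 0.115 for all genes tested. Cox6a2 (0.312), Atp5l (0.252), mt-Nd6 (0.211) and Cox7a1 (0.211) were the most variable.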
